A study of Rattus norvegicus with 49 samples.

Results

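This account follows 39 genes expressed by macrophages, by the Kupffer cells of the liver and by lymphocytes, in rats dosed by gavage with propylene glycol phenyl ether. The list rests on the cells that are known to express each gene, and it was drawn up with earlier results of these data known. Each was read from probe sets annotated to exactly 1 symbol, with the brightest one over all arrays as its measure. Of the 39 genes, 37 were measured among 14217 genes in all, and Marco and Spi1 were not analysed here. The 37 comprise 18 macrophage genes, 11 lymphocyte genes, 6 genes shared by most leukocytes and 2 genes of antigen presentation.

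The animals were male Harlan Sprague Dawley rats, which are outbred, 6 to 8 weeks old at assignment and fed NTP-2000 diet. They received propylene glycol phenyl ether, a glycol ether solvent, for 5 days and were killed on the day after the last dose. Groups of liver samples were given 0 (n = 5), 1, 10, 100, 500 or 1000 mg/kg (n = 4 each), and groups of kidney samples 0 (n = 5), 1, 10, 100 (n = 4 each), 500 (n = 3) and 1000 mg/kg (n = 4). All groups, including the 0 mg/kg controls, received corn oil at 5 mL/kg. No tissue was collected at 2000 mg/kg, where animals became moribund. The labels' treatment text names another compound, MCHM, while the title and sample labels name propylene glycol phenyl ether, which is followed here. Each of the 49 arrays holds total RNA of 1 piece of whole organ, so fewer cells of a type and less RNA per cell cannot be told apart. The labels call the samples biological replicates and do not tie a liver sample to a kidney sample.

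Values are log2 expression levels after robust multi-array averaging (RMA), so a difference of 1 is a doubling. The median of a liver array was 6.47 to 6.62 and that of a kidney array 6.62 to 6.77, and the least alike arrays of each organ still correlated at 0.987 (liver) and 0.988 (kidney). The organ labels matched their markers. Albumin (Alb) stood at 14.70 in control liver and 4.40 in control kidney, and the proximal tubule phosphate transporter Slc34a1 at 13.66 in control kidney and 5.27 in control liver. In 7 kidney arrays the mean of 9 adipocyte markers lay more than 0.5 above the control mean (range 0.53 to 1.55). They were control replicate 4, 1 mg/kg replicate 1, 10 mg/kg replicates 1, 3 and 4, 100 mg/kg replicate 1 and 500 mg/kg replicate 1, and none was a 1000 mg/kg array. Kidney 1 mg/kg replicate 1 was the highest of the 24 kidney arrays for 11 of the 37 genes. In liver, control replicate 3 was the highest of 25 arrays for 13 genes and 10 mg/kg replicate 1 the lowest for 10. At 1000 mg/kg, the count below 0 of all 37 genes and the calls in each organ are also given without certain arrays. These are the arrays high in adipocyte markers in kidney and control replicate 3 in liver. The count below 0 in both organs was not recomputed without them. The counts of members below 0 or at an unadjusted p under 0.05 at 1 and 10 mg/kg were not recomputed without single arrays. A gene was called at a limma adjusted p (Benjamini-Hochberg, over 14217 genes) under 0.05, and "rose" and "fell" are used of called genes only. Precision is limited by the few arrays of each group.

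As background, macrophages are long-lived phagocytes that reside in most organs, and in the liver they line the sinusoids as Kupffer cells. They depend on the growth factor receptor encoded by Csf1r, carry scavenger and pattern recognition receptors, secrete complement C1q and kill engulfed microbes with a phagocyte oxidase. The liver also holds many natural killer cells and T cells in its sinusoids, whereas the kidney's resident leukocytes sit mainly between its tubules. Many myeloid genes are driven by PU.1, the ETS family transcription factor encoded by Spi1.

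The PU.1 core GAGGAA was searched on both strands in the 250 bases before the start of each gene, in the RefSeq promoter table (build GRCr8). It was found in 18 of the 28 measured genes that the table holds (64.3%) and in 7812 of all 33469 promoters (23.3%). The members are counted once per gene, and the background per promoter entry, whether or not its gene was measured here. By group it was found in 9 of 13 macrophage genes and 4 of 8 lymphocyte genes. The longer form GAGGAAGT, which contains the core, was found in 3 of the 28 (10.7%), in none of the 13 macrophage genes and in 1 of the 8 lymphocyte genes, and in 2.04% of all promoters. A match is a description of the letters and not a binding site. The promoters below are those of Adgre1 and Cybb, the genes that fell in kidney, and of Cd53, the pan-leukocyte gene with the smallest p there. They are written 5′ to 3′ in the direction of the gene, with the core in capitals (GAGGAA, or TTCCTC where it lies on the other strand). Adgre1 lies on the plus strand and the window is chr9:2329190-2329439. Cybb lies on the minus strand at chrX:16065066-16065315, and Cd53 on the minus strand at chr2:197087897-197088146. The core ends 202 bases before the start of Adgre1, 9 before that of Cybb and 39 before that of Cd53, counted from the start that the promoter table uses. The RefSeq gene record begins 42 bases before that start in Adgre1 and 29 in Cd53, so the end of those windows lies inside the record.
Adgre1: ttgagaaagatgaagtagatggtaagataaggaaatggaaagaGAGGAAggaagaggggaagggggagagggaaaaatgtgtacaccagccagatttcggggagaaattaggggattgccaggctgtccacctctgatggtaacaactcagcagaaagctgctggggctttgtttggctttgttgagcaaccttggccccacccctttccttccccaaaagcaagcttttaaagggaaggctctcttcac
Cybb: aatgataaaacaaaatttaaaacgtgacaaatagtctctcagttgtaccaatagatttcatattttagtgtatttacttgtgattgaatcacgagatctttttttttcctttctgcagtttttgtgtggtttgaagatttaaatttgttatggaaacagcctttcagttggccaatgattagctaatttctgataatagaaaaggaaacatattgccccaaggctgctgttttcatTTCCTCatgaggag
Cd53: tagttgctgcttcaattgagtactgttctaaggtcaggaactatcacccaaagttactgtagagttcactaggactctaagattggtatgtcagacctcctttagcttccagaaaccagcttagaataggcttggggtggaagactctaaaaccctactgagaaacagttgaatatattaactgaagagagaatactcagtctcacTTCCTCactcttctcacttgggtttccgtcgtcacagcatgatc

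In control animals several genes had a far higher level in liver than in kidney. Clec4f, a lectin of Kupffer cells, stood at 10.71 ± 0.12 (SD, n = 5) in liver and 4.80 ± 0.29 (SD, n = 5) in kidney. Cd163, the scavenger receptor for haemoglobin bound to haptoglobin, stood at 7.56 ± 0.17 and 3.22 ± 0.10, and Mrc1, the mannose receptor, at 9.29 ± 0.08 and 4.44 ± 0.21 (SD, n = 5 each). Klrg1, an inhibitory receptor of natural killer cells and effector T cells, stood at 7.36 ± 0.05 in liver and 4.25 ± 0.20 in kidney (SD, n = 5 each). For each of these 4 genes all liver controls lay above all kidney controls. In the other direction, lysozyme (Lyz2) stood at 10.67 ± 0.16 in liver and 12.01 ± 0.21 in kidney, and Cd74, the invariant chain of class II molecules, at 10.04 ± 0.36 and 11.74 ± 0.13 (SD, n = 5 each). Cd14, the co-receptor for bacterial lipopolysaccharide, stood at 9.57 ± 0.49 and 5.70 ± 0.26 (SD, n = 5 each). The sources used here do not say whether both organs were normalized together, so these levels are a description with no test, of genes chosen after their values were seen.

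The lymphocyte genes were dim. Averaged over all arrays of the organ, the median gene stood at 6.56 in liver and 6.71 in kidney. By the same average, 2 of the 11 lymphocyte genes reached that level in liver (Klrg1 and Ccl5) and none in kidney, against 16 and 7 of the 18 macrophage genes and 6 and 5 of the 6 pan-leukocyte genes. Probe sets differ in brightness and no detection calls were used, so a low value holds an unknown share of background.

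**Figure D1:**
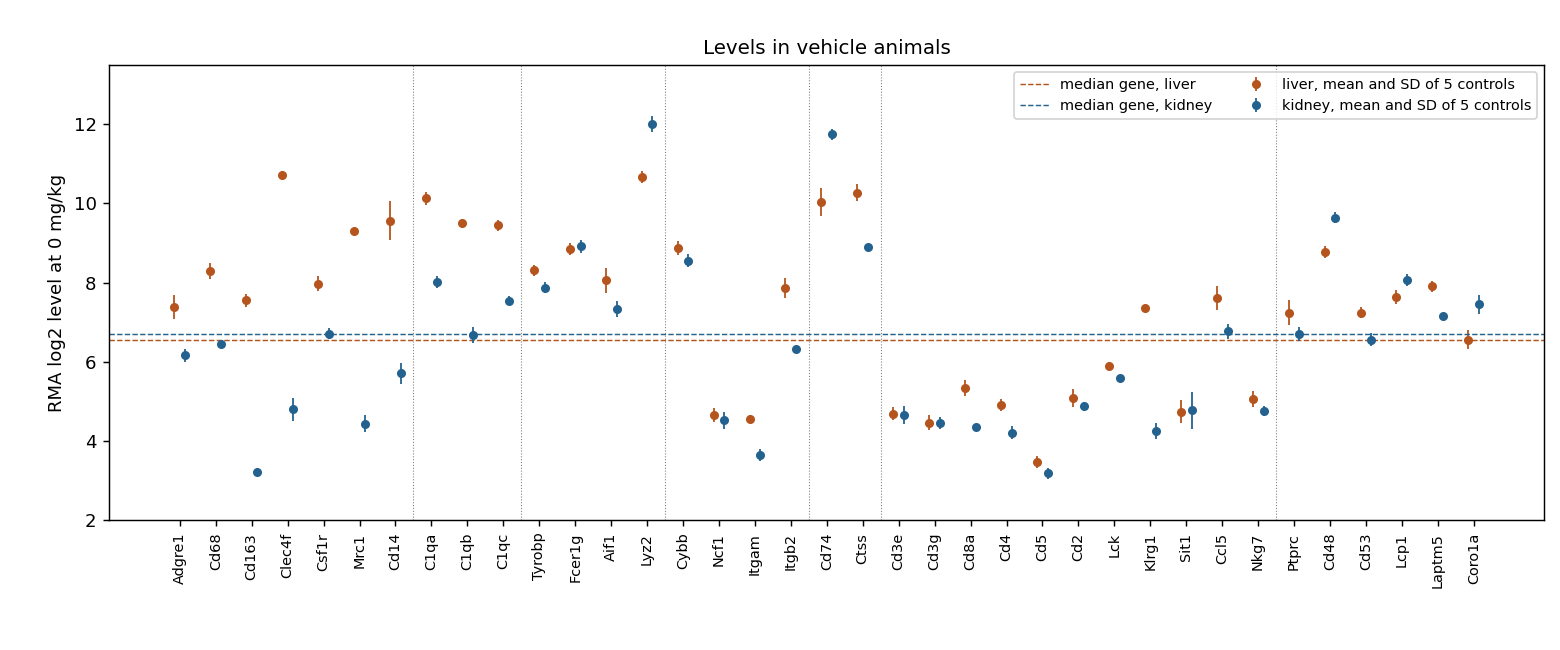
RMA log2 level (vertical axis) of the 37 genes in vehicle animals of each organ, as mean and SD of 5 controls, with dashed lines at the median gene of each organ over all its arrays (6.56 in liver, 6.71 in kidney). Points compare the same gene between organs and not different genes; Clec4f, Cd163, Mrc1 and Klrg1 sit far higher in liver.

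At 1000 mg/kg most of the 37 genes had a log2 change below 0 in both organs, by small amounts. In liver 31 of 37 lay below 0 (83.8%, against 45.7% of all genes), with a median of -0.13 against 0.02 for all genes. In kidney it was also 31 of 37 (83.8%, against 55.5% of all genes), with a median of -0.13 against -0.02. In liver 1 gene passed the test, Klrg1, lower (1 of 37, where 0.309% of all genes were called lower and 1.05% either way). In kidney 2 passed, Adgre1 and Cybb, both lower (2 of 37, where 1.04% of all genes were called lower and 1.55% either way). No member rose in either organ, where 0.739% of all genes did so in liver and 0.506% in kidney. The count below 0 ran from 28 to 31 in liver and from 28 to 32 in kidney when each array of the compared groups was left out. Without liver control replicate 3 the liver count was 28 (75.7%, against 45.9% of all genes), and the median was -0.07. With each array centred on its median the count was 32 in liver and 27 in kidney (73.0%), where the share of all genes below 0 became 55.7% and 40.3%. Without the kidney arrays high in adipocyte markers the kidney count was 30, and the median was -0.16.

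Of the 37 genes, 26 lay below 0 in both organs (70.3%), 1 above 0 in both and 10 on opposite sides, where 25.7% of all genes lay below 0 in both. The macrophage genes account for 14 of the 26 (of 18), the lymphocyte genes for 6 (of 11) and the pan-leukocyte genes for 5 (of 6). The genes share their arrays, so these shares describe the lists and carry no test.

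At the lower doses no member was called in either organ with limma, nor between 1000 and 500 mg/kg. Of all genes, 0.00703% were called at 10 mg/kg and 0.0492% at 500 mg/kg in liver and 0.00703% between 1000 and 500 mg/kg there, and none in the other of these comparisons. In liver the number of members below 0 was 27, 30, 12 and 24 of 37 at the doses from 1 to 500 mg/kg, against 44.4%, 43.2%, 44.4% and 43.5% of all genes. In kidney it was 11, 22, 20 and 20 at these doses, against 52.8%, 57.6%, 58% and 51.7% of all genes. The counts thus followed no order of dose below 1000 mg/kg in either organ. The comparisons of an organ share their controls, so a shift of the controls moves all of them.

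At an unadjusted p under 0.05 with limma, the members lower in liver numbered 2, 6, 1 and 0 at 1, 10, 100 and 500 mg/kg, against 3.11%, 3.15%, 2.89% and 3.24% of all genes. Those higher numbered 0, 0, 1 and 1, against 6.34%, 6.07%, 6.29% and 7.48%. In kidney, 1, 1, 1 and 4 members were lower, against 1.46%, 4.23%, 4.7% and 2.86% of all genes, and 1, 1, 2 and 2 were higher, against 1.51%, 3.12%, 2.13% and 2.22%. Between 1000 and 500 mg/kg, 4 were lower and 1 higher in liver (3.87% and 2.68% of all genes), and 7 lower and none higher in kidney (3.88% and 1.94%). Over dose rank, no member was called in liver, where 0.661% of all genes were. At an unadjusted p under 0.05 with limma, 3 members had a falling slope there and none a rising one (4.04% and 7.69% of all genes). In kidney 1 member was called over dose rank, Adgre1, and 13 had a falling and 2 a rising slope at an unadjusted p under 0.05 (7.97% and 4.51% of all genes).

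**Figure D2:**
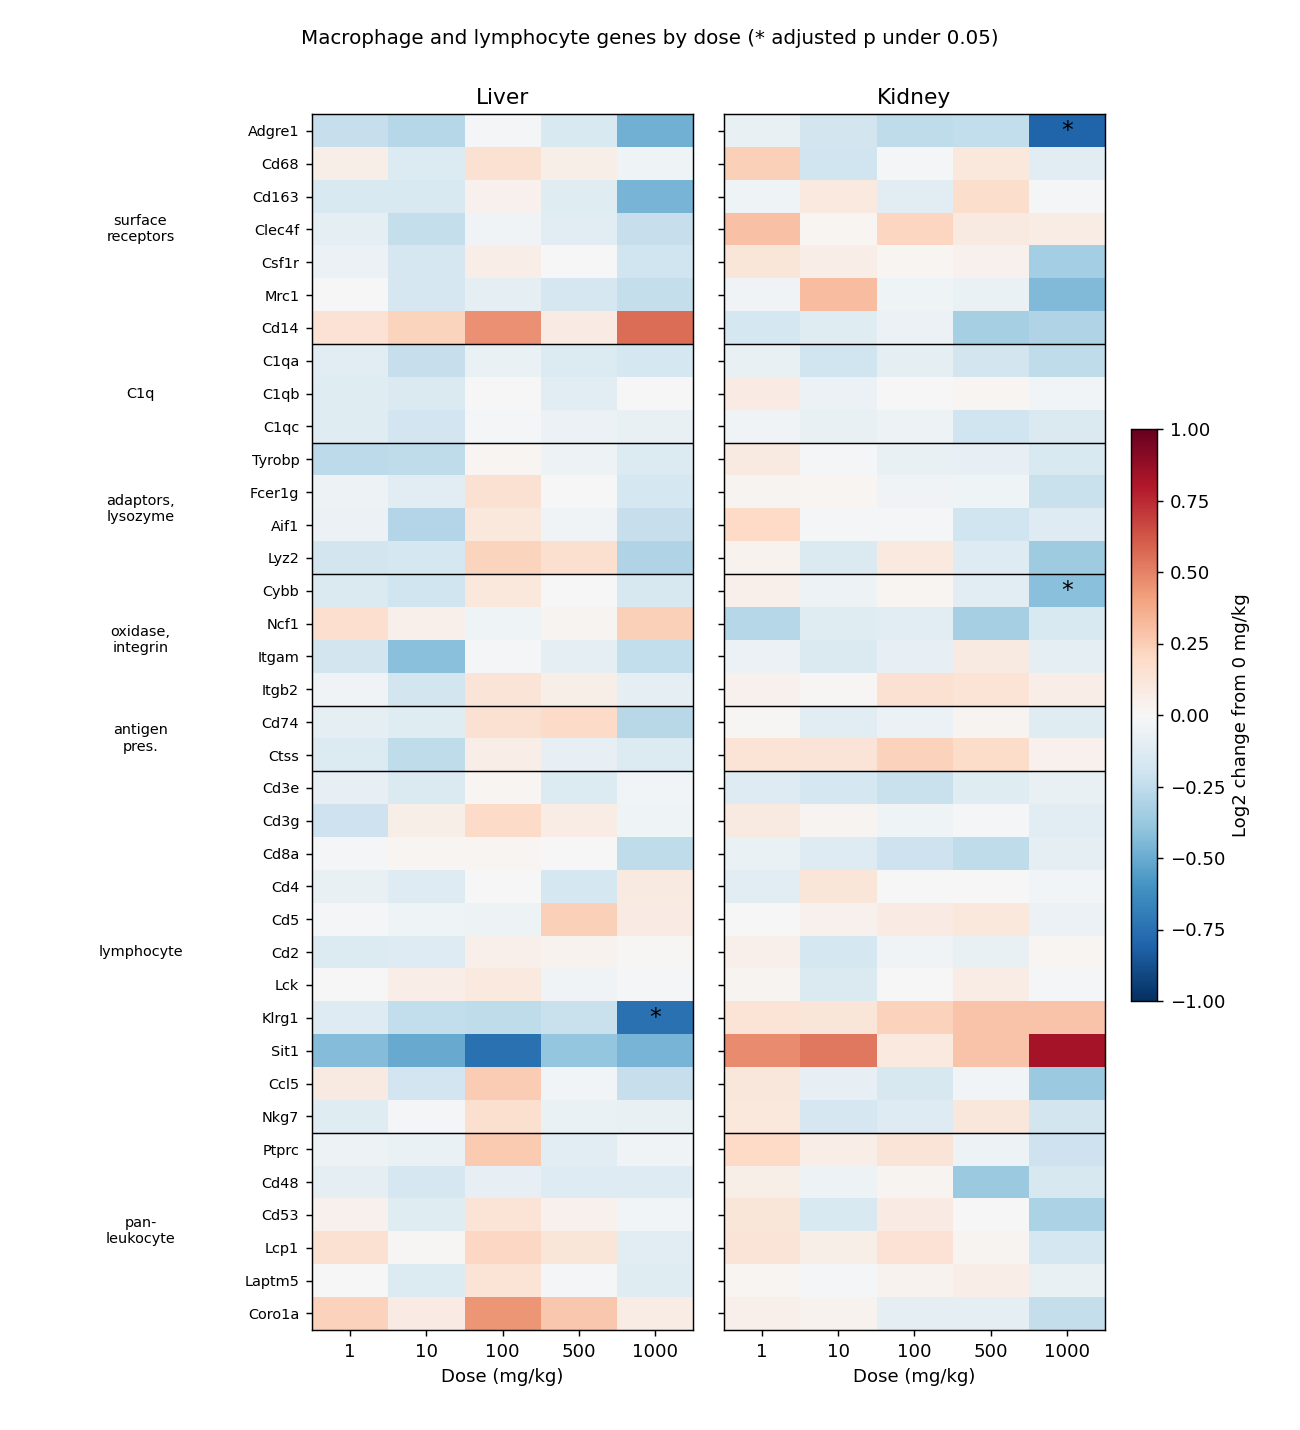
Log2 change from the organ's 0 mg/kg controls for each of the 37 genes (rows, by role) at 5 doses (columns, mg/kg) in liver and kidney, with the colour scale from -1 to 1 and a star at a limma adjusted p under 0.05. The stars stand at Klrg1 in liver and at Adgre1 and Cybb in kidney, all at 1000 mg/kg; Sit1 is below 0 at all 5 doses in liver and above 0 at all 5 in kidney.

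Among the macrophage surface receptors, Adgre1 fell in kidney at 1000 mg/kg. Adgre1 is an adhesion G protein-coupled receptor widely used as a macrophage marker. Its 5 kidney controls read 6.25, 6.26, 6.13, 5.89 and 6.29, and the 4 arrays at 1000 mg/kg read 5.43, 4.83, 5.35 and 5.83. Every array at 1000 mg/kg lay below every control, with the highest at 5.83 and the lowest control at 5.89. The 4 arrays at 1 mg/kg read 6.47, 6.03, 5.96 and 5.89, those at 10 mg/kg 5.74, 5.89, 6.17 and 6.10, those at 100 mg/kg 5.87, 6.12, 6.22 and 5.44, and the 3 at 500 mg/kg 5.97, 6.22 and 5.56. These groups overlapped the controls. At 1000 mg/kg the level was 5.36 ± 0.41 (SD, n = 4) against 6.16 ± 0.17 (SD, n = 5), a log2 change of -0.80 (SE 0.18, 95% interval -1.17 to -0.43, limma adjusted p = 0.0218), or 1.74-fold lower. The slope over dose rank was -0.13 per step (limma adjusted p = 0.0297), and Adgre1 was the only 1 of the 37 called for a trend in kidney, where 1.39% of all genes were.

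The call for Adgre1 did not pass without kidney control replicate 2 (-0.78, limma adjusted p = 0.0571), without 1000 mg/kg replicate 2 (-0.62, limma adjusted p = 0.0995) or without 1000 mg/kg replicate 3 (-0.79, limma adjusted p = 0.0787). With the arrays high in adipocyte markers left out it was -0.87 (limma adjusted p = 0.0575), and with only those 2 groups fitted -0.80 (limma adjusted p = 0.0578). With the adipocyte level as a covariate it was -0.78 (limma adjusted p = 0.0345). Its trend was lost on leaving out control replicate 1 or 2, replicate 3 at 500 mg/kg, or replicate 1, 2 or 3 at 1000 mg/kg (limma adjusted p from 0.0510 to 0.0989). The trend also did not pass without the arrays high in adipocyte markers (limma adjusted p = 0.0625).

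In liver the same receptor did not pass. Adgre1 read 7.32, 6.95, 7.80, 7.49 and 7.34 in the controls and 6.98, 6.57, 6.83 and 7.21 at 1000 mg/kg. The groups overlapped through control replicate 2. The change was -0.48 (95% interval -0.80 to -0.17, limma adjusted p = 0.146). The difference between the organs' changes was 0.32 (95% interval -0.17 to 0.80, limma adjusted p = 0.638), so the fall in kidney was not shown to differ from the value in liver.

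Csf1r, the receptor for macrophage colony stimulating factor, read 6.78, 6.90, 6.72, 6.59 and 6.57 in kidney controls and 6.26, 6.32, 6.38 and 6.52 at 1000 mg/kg. Its groups did not overlap, and the change of -0.34 (95% interval -0.54 to -0.14) did not pass (limma adjusted p = 0.0770). It did pass once the 7 arrays high in adipocyte markers were left out (-0.37, limma adjusted p = 0.0347) and without control replicate 5 (-0.38, limma adjusted p = 0.0487). In liver Csf1r stood at 7.97 ± 0.19 (SD, n = 5) in controls and 7.77 ± 0.13 (SD, n = 4) at 1000 mg/kg (limma adjusted p = 0.404). In liver Cd163 read 7.36, 7.68, 7.77, 7.52 and 7.46 in controls and 7.46, 6.66, 7.11 and 7.16 at 1000 mg/kg, with replicate 1 inside the control range and the other 3 below it. Its change was -0.46 (95% interval -0.76 to -0.17, limma adjusted p = 0.139), against -0.02 in kidney, where its control level was 3.22. The difference between organs was -0.44 (limma adjusted p = 0.324).

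The remaining surface receptors are given to complete the group, by a choice made after their values were seen. Mrc1 read 9.19, 9.33, 9.40, 9.25 and 9.30 in liver controls and 9.18, 9.07, 8.995 and 8.97 at 1000 mg/kg. In kidney Mrc1 read 4.28, 4.40, 4.24, 4.49 and 4.76 in controls and 3.68, 4.05, 4.20 and 4.03 at 1000 mg/kg. The Mrc1 groups did not overlap in either organ, and neither change passed (-0.24, limma adjusted p = 0.209 in liver and -0.44, limma adjusted p = 0.216 in kidney). Groups that did not overlap, with the dosed arrays lower, numbered 2 of 37 in liver (Klrg1 and Mrc1) and 3 of 37 in kidney (Adgre1, Csf1r and Mrc1), where 1.73% and 3.09% of all genes did so. Clec4f read 10.57, 10.68, 10.85, 10.80 and 10.64 in liver controls and 10.77, 10.33, 10.37 and 10.43 at 1000 mg/kg (-0.23, limma adjusted p = 0.285). Replicate 1 lay within the controls and the other 3 below them. Cd14 was the surface receptor with a value above 0 in liver. It read 9.01, 9.68, 9.19, 10.27 and 9.68 in liver controls and 10.32, 10.46, 9.93 and 9.80 at 1000 mg/kg, a change of 0.56 (95% interval 0.01 to 1.11, limma adjusted p = 0.386). In kidney the change of Cd14 was -0.30 (limma adjusted p = 0.373), and the difference between organs was 0.86 (limma adjusted p = 0.230). For Cd68, a lysosomal glycoprotein of macrophages, the value was -0.04 in liver and -0.11 in kidney, and neither passed the test.

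The C1q chains, which form the recognition unit of the classical complement pathway, did not pass in either organ. C1qa read 9.89, 10.06, 10.34, 10.11 and 10.24 in liver controls and 10.09, 9.84, 9.93 and 9.96 at 1000 mg/kg (-0.18, limma adjusted p = 0.512). In kidney C1qa read 7.94, 8.20, 8.07, 7.81 and 8.05 in controls and 7.93, 7.82, 7.64 and 7.65 at 1000 mg/kg (-0.26, limma adjusted p = 0.288). The groups overlapped in both organs. The interval of C1qb was narrow around 0, from -0.22 to 0.22 in liver and from -0.24 to 0.19 in kidney. C1qc had values of -0.08 in liver and -0.14 in kidney. The 3 genes are neighbours in RefSeq (GRCr8).

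The myeloid adaptors, Aif1 and lysozyme had values below 0 in both organs, all 4 of 4 in each, and none passed. Fcer1g, the signalling chain of Fc receptors, read 8.61, 8.79, 9.005, 8.94 and 8.88 in liver controls and 8.76, 8.53, 8.73 and 8.63 at 1000 mg/kg (-0.18, limma adjusted p = 0.541). In kidney Fcer1g read 9.01, 9.15, 8.88, 8.73 and 8.80 in controls and 8.85, 8.72, 8.40 and 8.81 at 1000 mg/kg (-0.22, limma adjusted p = 0.421). In both organs the groups overlapped. Lyz2 read 10.82, 10.86, 10.49, 10.57 and 10.60 in liver controls and 9.94, 10.09, 10.59 and 10.86 at 1000 mg/kg (-0.30, limma adjusted p = 0.557). At 1000 mg/kg the liver arrays split, with replicates 1 and 2 below all controls and replicates 3 and 4 at the level of the controls. In kidney Lyz2 read 12.24, 12.19, 11.72, 11.92 and 11.96 in controls and 11.71, 11.52, 11.53 and 11.85 at 1000 mg/kg (-0.35, limma adjusted p = 0.265). Tyrobp, an adaptor of activating receptors on myeloid and natural killer cells, had values of -0.14 in liver and -0.15 in kidney. Aif1, a calcium-binding protein of macrophages, had values of -0.23 and -0.13.

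Among the genes of the phagocyte oxidase and the beta 2 integrin, Cybb fell in kidney at 1000 mg/kg. Cybb encodes the membrane-bound catalytic subunit of the oxidase that makes superoxide. Its kidney controls read 8.60, 8.67, 8.62, 8.63 and 8.27, and the arrays at 1000 mg/kg read 8.11, 8.08, 8.01 and 8.35. All 4 dosed arrays lay below controls 1 to 4, and the groups overlapped through control replicate 5 alone. Arrays of the lower doses read 8.74, 8.62, 8.56 and 8.52 at 1 mg/kg, 8.44, 8.36, 8.57 and 8.64 at 10 mg/kg, 8.37, 8.62, 8.68 and 8.63 at 100 mg/kg, and 8.57, 8.46 and 8.33 at 500 mg/kg. The level at 1000 mg/kg was 8.14 ± 0.15 (SD, n = 4) against 8.56 ± 0.16 (SD, n = 5), a log2 change of -0.42 (SE 0.09, 95% interval -0.61 to -0.23, limma adjusted p = 0.0174), or 1.34-fold lower. The slope over dose rank did not pass (limma adjusted p = 0.0514).

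The call for Cybb did not pass without kidney control replicate 2, 3 or 4 or without 1000 mg/kg replicate 1, 2 or 3 (-0.41 to -0.38, limma adjusted p from 0.0501 to 0.0890). Without the arrays high in adipocyte markers it was -0.40 (limma adjusted p = 0.0590), and with only those 2 groups fitted -0.42 (limma adjusted p = 0.0952). A second, dimmer probe set of Cybb, at 5.37 in kidney controls, gave -0.26 (limma adjusted p = 0.674 over all probe sets). With the mean of both probe sets the change was -0.34 (limma adjusted p = 0.181). In liver Cybb read 8.75, 8.86, 9.13, 8.92 and 8.70 in controls and 8.78, 8.62, 8.65 and 8.80 at 1000 mg/kg (-0.16, limma adjusted p = 0.604). These groups overlapped.

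Ncf1, a cytosolic subunit of the same oxidase, did not pass in either organ. It read 4.72, 4.80, 4.36, 4.72 and 4.67 in liver controls and 4.92, 4.69, 5.08 and 4.87 at 1000 mg/kg (0.24, limma adjusted p = 0.431). In kidney it read 4.62, 4.21, 4.46, 4.80 and 4.49 in controls and 4.18, 4.57, 4.21 and 4.50 at 1000 mg/kg (-0.15, limma adjusted p = 0.685). Its groups overlapped in both organs. Itgam, the alpha chain of complement receptor 3, read 4.59, 4.44, 4.59, 4.66 and 4.44 in liver controls and 4.13, 4.86, 3.83 and 4.37 at 1000 mg/kg (-0.25, limma adjusted p = 0.601). The dosed arrays lay on both sides of the controls. Its partner Itgb2, the beta chain shared by leukocyte integrins, had values of -0.09 in liver and 0.06 in kidney, and Itgam had -0.09 in kidney.

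**Figure D3:**
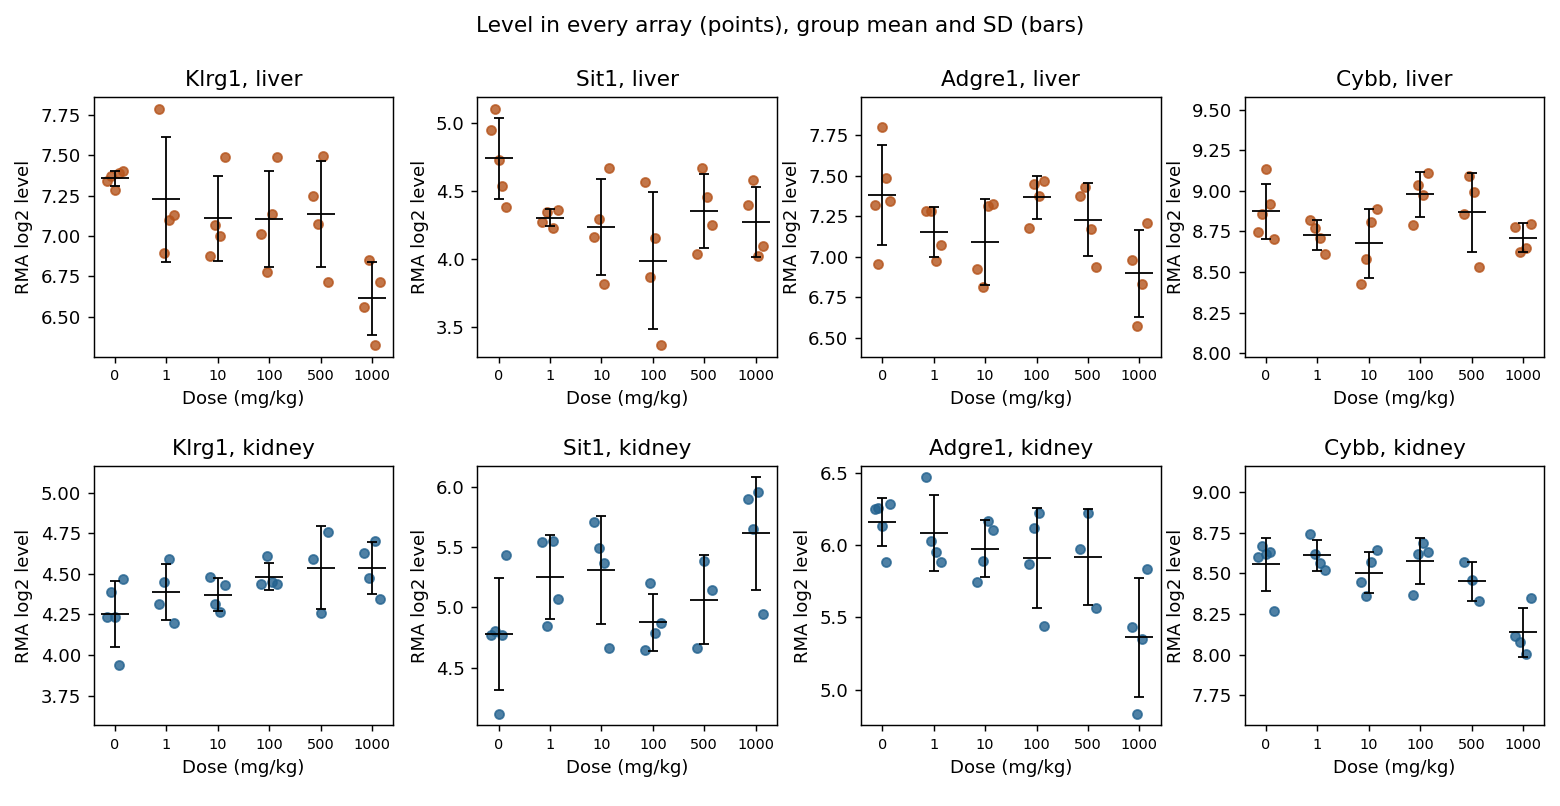
RMA log2 level of Klrg1, Sit1, Adgre1 and Cybb in every array (points; liver above, kidney below) by dose in mg/kg, with group mean and SD as bars. The axes span different levels from panel to panel. In liver the 4 Klrg1 arrays at 1000 mg/kg lie from 6.33 to 6.85, below the controls at 7.29 to 7.41, and in kidney the 4 Adgre1 arrays at 1000 mg/kg lie below all controls.

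The 2 genes of antigen presentation did not pass. Cd74 read 9.95, 9.88, 10.67, 9.75 and 9.97 in liver controls and 9.80, 9.39, 9.84 and 10.04 at 1000 mg/kg (-0.27, limma adjusted p = 0.609). Control replicate 3 stood above all the other arrays of the pair of groups, and without it the change was -0.12. In kidney Cd74 read 11.82, 11.72, 11.88, 11.55 and 11.75 in controls and 11.57, 11.86, 11.28 and 11.78 at 1000 mg/kg (-0.12, limma adjusted p = 0.734). Ctss, cathepsin S, the protease that degrades the invariant chain, had values of -0.14 in liver and 0.05 in kidney. Its interval in kidney ran from -0.10 to 0.19.

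Among the 11 lymphocyte genes, Klrg1 fell in liver at 1000 mg/kg. The liver controls read 7.34, 7.37, 7.29, 7.39 and 7.41, and the arrays at 1000 mg/kg read 6.56, 6.85, 6.33 and 6.72. Every array at 1000 mg/kg lay below every control. The lower doses were more spread, at 7.79, 6.90, 7.10 and 7.13 at 1 mg/kg, 6.88, 7.07, 7.00 and 7.49 at 10 mg/kg, 7.01, 6.77, 7.14 and 7.49 at 100 mg/kg, and 7.25, 7.08, 7.50 and 6.71 at 500 mg/kg. In each of these doses 3 arrays lay below the lowest control and 1 above the highest. The level at 1000 mg/kg was 6.61 ± 0.22 (SD, n = 4) against 7.36 ± 0.05 (SD, n = 5), a log2 change of -0.75 (SE 0.17, 95% interval -1.10 to -0.39, limma adjusted p = 0.0341), or 1.68-fold lower. The slope over dose rank was -0.11 per step and did not pass (limma adjusted p = 0.0751).

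The controls of Klrg1 had an SD of 0.05 in liver, whereas the dosed groups had SDs from 0.22 to 0.39. It did not pass when control replicate 1, 2, 3, 4 or 5 or 1000 mg/kg replicate 1, 3 or 4 was left out (-0.78 to -0.65, limma adjusted p from 0.0536 to 0.159). Without 1000 mg/kg replicate 2 it passed (-0.82, limma adjusted p = 0.0371). The direction was lower in each of these fits. It passed in every other fit tried that kept all arrays and had no replicate block.

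In kidney Klrg1 read 4.23, 4.39, 4.23, 3.94 and 4.47 in controls and 4.63, 4.48, 4.70 and 4.34 at 1000 mg/kg. The groups overlapped, and the change of 0.29 (95% interval 0.06 to 0.51) did not pass (limma adjusted p = 0.231). The organs' changes differed by -1.03 (liver minus kidney, SE 0.21, 95% interval -1.45 to -0.61, limma adjusted p = 0.00959). The difference in Klrg1 passed without each of the 18 arrays in turn (limma adjusted p from 0.00717 to 0.0425). Without the kidney arrays high in adipocyte markers it was -0.95 and did not pass (limma adjusted p = 0.0529). Of all genes, 0.626% were called for a difference between organs, and of the 37 members 2 were, Klrg1 and Sit1.

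Sit1 encodes a transmembrane adaptor that dampens T cell receptor signalling. In liver it read 4.95, 5.11, 4.73, 4.54 and 4.38 in controls and 4.40, 4.58, 4.02 and 4.10 at 1000 mg/kg. In kidney it read 4.77, 4.80, 4.12, 4.77 and 5.44 in controls and 5.90, 5.65, 5.96 and 4.94 at 1000 mg/kg. The groups overlapped in both organs, with liver lower and kidney higher on average. Neither change passed, at -0.47 in liver (95% interval -0.88 to -0.05, limma adjusted p = 0.325) and 0.83 in kidney (95% interval 0.32 to 1.35, limma adjusted p = 0.101). Their difference of -1.30 (95% interval -1.96 to -0.64) passed (limma adjusted p = 0.0487).

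At the lower doses Sit1 in liver read 4.28, 4.34, 4.23 and 4.36 at 1 mg/kg, 4.17, 4.29, 3.82 and 4.67 at 10 mg/kg, 4.57, 3.87, 4.16 and 3.37 at 100 mg/kg, and 4.04, 4.67, 4.46 and 4.25 at 500 mg/kg. The changes of these doses were -0.44, -0.50, -0.75 and -0.38, all against the same 5 controls, and did not follow the order of dose. In kidney the changes were 0.47, 0.53, 0.10 and 0.28, again against shared controls. The difference between organs did not pass without any 1 of 14 of the 18 arrays (kidney control replicate 1, 2, 3 or 4, kidney 1000 mg/kg replicate 1, 2 or 3, liver control replicate 1, 2, 3 or 4, and liver 1000 mg/kg replicate 1, 3 or 4). Its values without 1 array ran from -1.35 to -1.13 where it was lost (limma adjusted p from 0.0544 to 0.135). It also did not pass without the arrays high in adipocyte markers (-1.30, limma adjusted p = 0.0770). In kidney alone Sit1 passed, as higher, when control replicate 5 was left out (1.00, limma adjusted p = 0.0312) and when 1000 mg/kg replicate 4 was (1.06, limma adjusted p = 0.0290).

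The T cell genes proper had small values and were dim. Cd3e and Cd3g, chains of the T cell receptor complex, Cd4 and Cd8a, its co-receptors, Cd2 and Cd5, surface proteins of T cells, and Lck, the kinase that starts receptor signalling, had values from -0.26 (Cd8a) to 0.09 (Cd4) in liver and from -0.11 (Cd3g) to 0.02 (Cd2) in kidney. None of the 7 passed in either organ. All 7 lay below the median gene in both organs, so their readings hold an unknown share of background. Lck had an interval from -0.23 to 0.19 in liver and from -0.18 to 0.16 in kidney. In rats Cd4 is also carried by macrophages. Ccl5, a chemokine made by activated T cells and natural killer cells, read 6.86, 6.94, 6.90, 6.59 and 6.55 in kidney controls and 6.24, 6.47, 6.16 and 6.69 at 1000 mg/kg (-0.37, limma adjusted p = 0.225), with 3 of the 4 dosed arrays below every control. In liver Ccl5 had a value of -0.23 (limma adjusted p = 0.459). Nkg7, a granule protein of cytotoxic cells, had values of -0.07 in liver and -0.18 in kidney.

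The 6 pan-leukocyte genes all had values below 0 in kidney at 1000 mg/kg, with a median of -0.19, and none passed. Cd53, a tetraspanin of leukocytes, read 6.62, 6.48, 6.74, 6.66 and 6.31 in kidney controls and 6.19, 6.39, 6.11 and 6.31 at 1000 mg/kg (-0.31, limma adjusted p = 0.180). Coro1a, a coronin that binds actin in leukocytes, read 7.48, 7.74, 7.55, 7.33 and 7.13 in kidney controls and 7.23, 7.20, 7.01 and 7.40 at 1000 mg/kg (-0.24, limma adjusted p = 0.318). For both, control replicate 5 was the lowest control and lay among the dosed arrays. Ptprc, the leukocyte phosphatase CD45, had a value of -0.21 in kidney, and its second probe set -0.37 (limma adjusted p = 0.218 over all probe sets).

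In liver the pan-leukocyte genes had a median of -0.07, with 5 of 6 below 0. The count was 3 of 6 without liver control replicate 3 or without 1000 mg/kg replicate 2. Cd48, a ligand on most leukocytes, read 8.59, 8.78, 8.99, 8.73 and 8.76 in controls and 8.53, 8.48, 8.70 and 8.86 at 1000 mg/kg (-0.13, limma adjusted p = 0.667). Laptm5, a lysosomal membrane protein of blood cells, read 7.75, 7.87, 8.14, 7.88 and 7.89 in controls and 7.75, 7.75, 7.77 and 7.87 at 1000 mg/kg (-0.12, limma adjusted p = 0.607). Both overlapped their controls. Lcp1, the actin-bundling plastin of leukocytes, had values of -0.11 in liver and -0.17 in kidney.

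The macrophage and lymphocyte genes were also averaged within each array. The mean of the 18 macrophage genes, taken per array relative to the control mean, was -0.22, -0.20, -0.32 and -0.11 in the 4 kidney arrays at 1000 mg/kg, and lay from -0.06 to 0.07 in the controls. The mean of the 11 lymphocyte genes lay from -0.00 to 0.05 in the same 4 arrays and from -0.08 to 0.13 in the controls. That of the 6 pan-leukocyte genes lay from -0.26 to -0.07, against -0.16 to 0.13 in controls. So the macrophage means at 1000 mg/kg lay below all controls and the lymphocyte means within them, where Klrg1 and Sit1 lay above 0. The kidney macrophage means lay from -0.06 to 0.17 at 1 mg/kg and from -0.15 to 0.06 at 10 mg/kg. They lay from -0.11 to 0.12 at 100 mg/kg and from -0.20 to 0.04 at 500 mg/kg. The lowest arrays at 10, 100 and 500 mg/kg thus also lay below all controls. Without Sit1 the kidney lymphocyte means lay from -0.12 to -0.02 (controls -0.09 to 0.14), and without Sit1 and Klrg1 from -0.18 to -0.03 (controls -0.08 to 0.14), genes left out after their values were seen. The place of the lymphocyte mean near the controls' thus rests on these genes, and the difference between the lists was not tested. In liver at 1000 mg/kg the macrophage means (-0.22 to -0.07) overlapped the controls (-0.14 to 0.15). The lymphocyte means (-0.23 to -0.12, controls -0.12 to 0.05) overlapped them through control replicate 5 alone. Without Sit1 and Klrg1 the liver lymphocyte means lay from -0.09 to -0.02, within the controls (-0.11 to 0.04). The near separation of the liver lymphocyte means thus also rests on these genes. Averaged by dose, the liver macrophage means were -0.08, -0.17, 0.06 and -0.04 from 1 to 500 mg/kg and -0.14 at 1000 mg/kg. The lowest was that at 10 mg/kg.

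In gene counts, 16 of the 18 macrophage genes lay below 0 in each organ, with medians of -0.18 in liver and -0.15 in kidney. With limma, at an unadjusted p under 0.05, 4 were lower and 1 higher in liver, and 7 lower and none higher in kidney, where 4.54% of all genes were lower and 7.88% higher in liver, and 8.57% lower and 4.76% higher in kidney. Of the 11 lymphocyte genes 8 lay below 0 in each organ, with medians of -0.04 and -0.06. Their count by unadjusted p is not given here, so the lists are not compared by that measure. The 95% intervals of Klrg1 and Sit1 lay wholly below 0 in liver and wholly above 0 in kidney, and Ccl5 had values below 0 in both organs. With arrays quantile normalized within the organ, the lymphocyte count was 6 in liver and 7 in kidney, and the macrophage count 16 and 15. The liver macrophage median was -0.11 without control replicate 3, the array highest for 8 of the 18 genes. The kidney macrophage median ran from -0.21 to -0.11 when single arrays were left out.

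**Figure D4:**
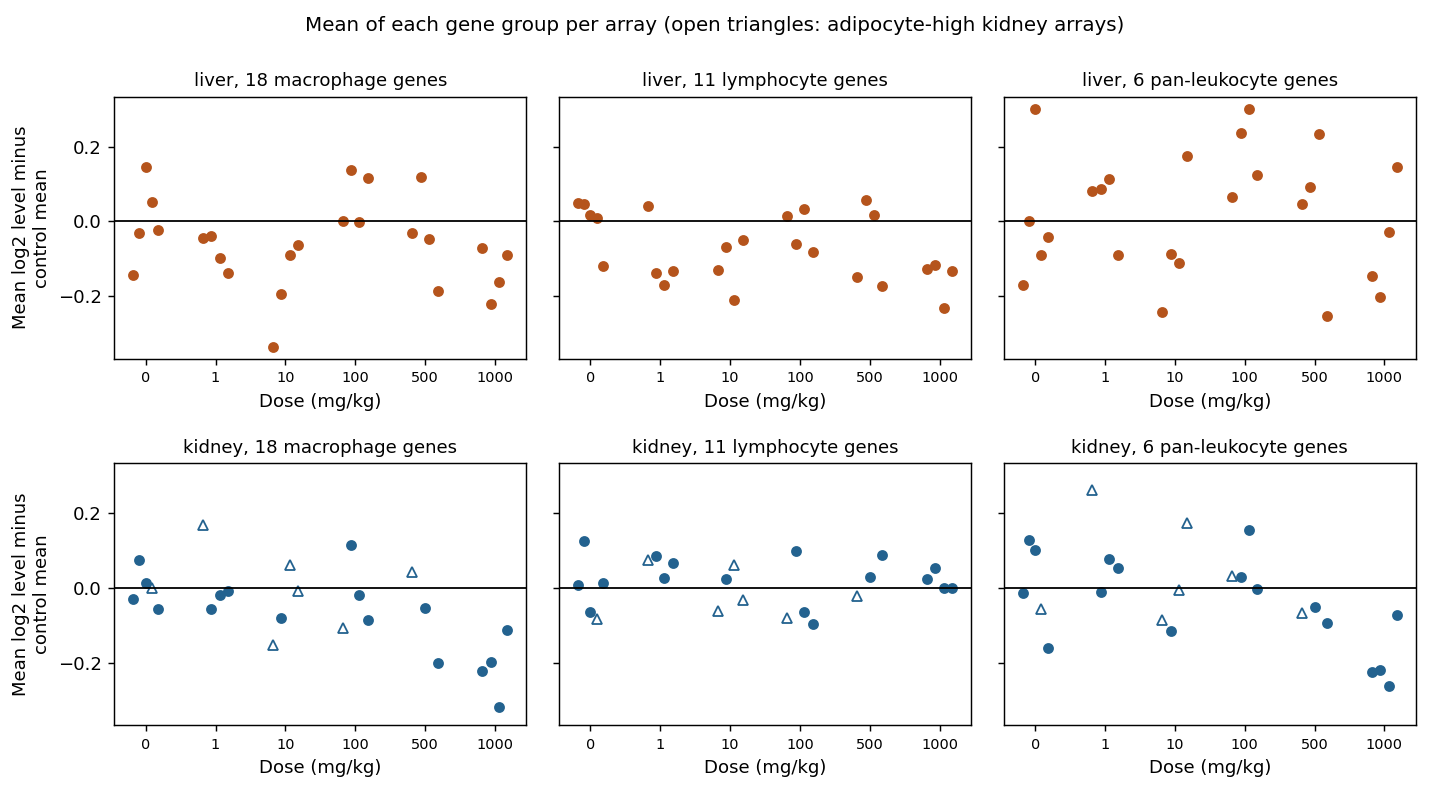
Mean log2 level of the 18 macrophage, 11 lymphocyte and 6 pan-leukocyte genes in each array minus the organ's control mean (vertical axis), by dose in mg/kg, with liver above and kidney below. Open triangles are the 7 kidney arrays high in adipocyte markers. The 4 kidney macrophage means at 1000 mg/kg (-0.32 to -0.11) lie below all 5 controls, and the lymphocyte means beside them lie from -0.00 to 0.05.

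The size of change in array signal that these arrays bound can be read from the intervals at 1000 mg/kg. The 95% interval lay wholly within 1.5-fold of the control for 29 of the 37 genes in liver and 30 in kidney, and within 2-fold for 35 in each. The intervals of Klrg1 and Cd14 reached beyond 2-fold in liver, and those of Adgre1 and Sit1 in kidney. Averaged over all arrays of the organ, 11 of the 37 genes in liver and 23 in kidney lay below the median gene. Their readings hold an unknown share of background, so their intervals bound the signal and need not bound the change in RNA. A p that misses the threshold does not show that a level did not change.

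**Figure D5:**
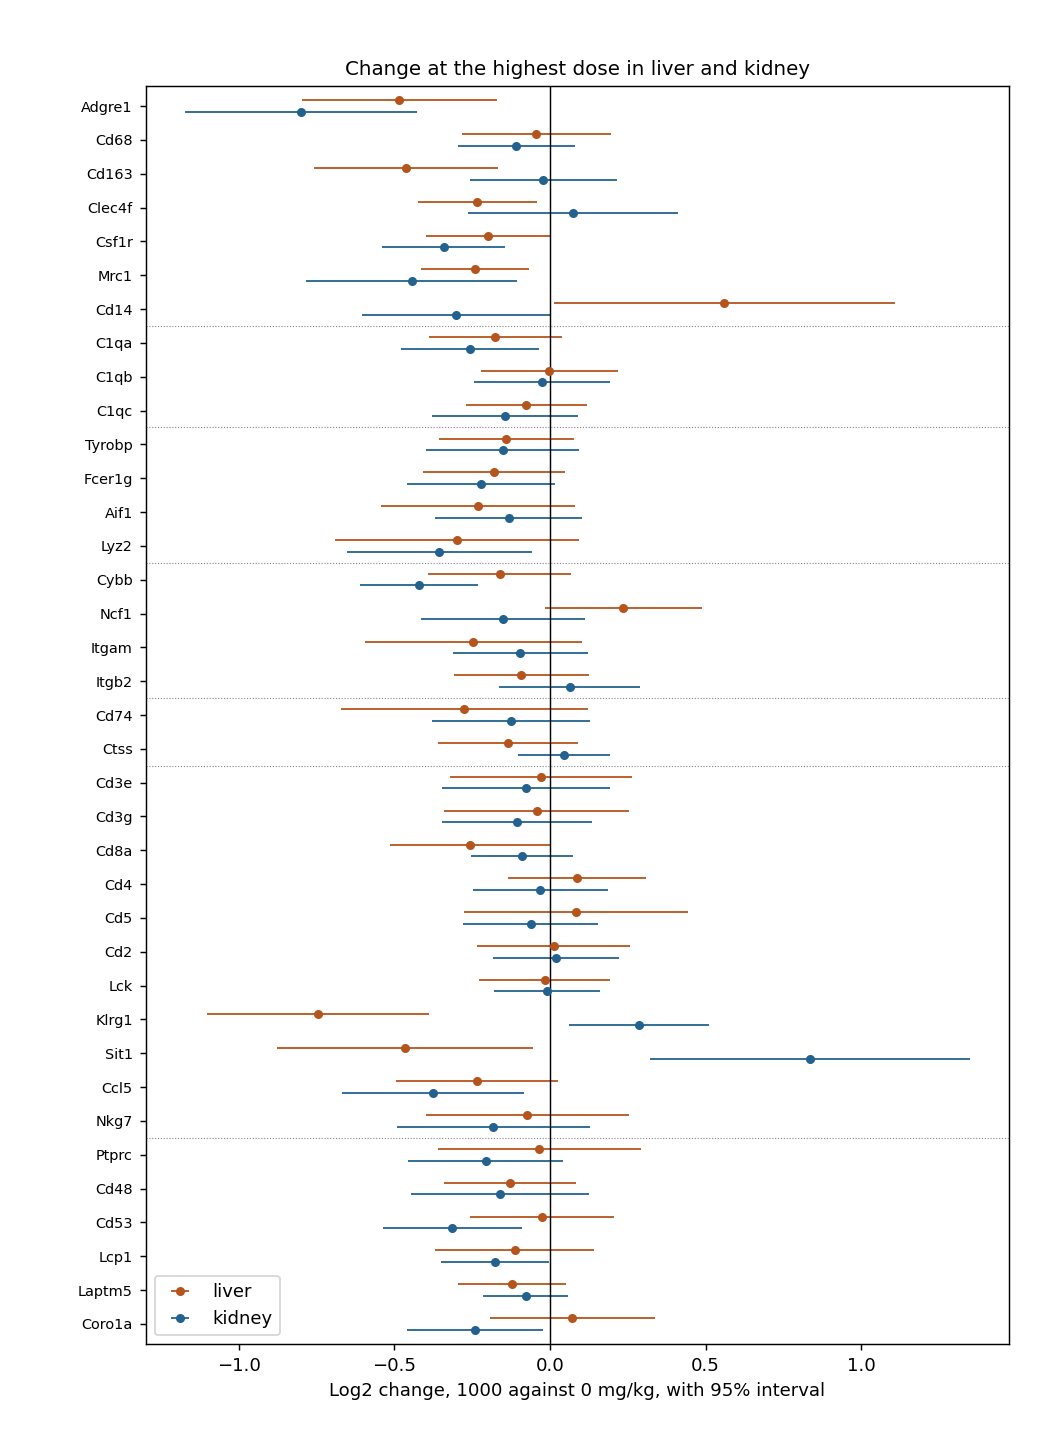
Log2 change at 1000 against 0 mg/kg (horizontal axis) with its 95% interval for each of the 37 genes, liver and kidney side by side, with dotted lines between role groups. For Klrg1 the liver interval (-1.10 to -0.39) and the kidney interval (0.06 to 0.51) lie on opposite sides of 0, as do those of Sit1 and Cd14.

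Other genes of the same cells were taken from lists chosen with results of these data known. Of 13 further macrophage genes measured, none was called in liver with limma, where 1.05% of all genes were. At an unadjusted p under 0.05 with limma, 1 was lower there (4.54% of all genes). In kidney 1 of the 13 fell, where 1.04% of all genes did. This was Tlr4, the receptor for lipopolysaccharide, which stood at 5.00 ± 0.09 (SD, n = 5) in kidney controls and 4.43 ± 0.16 (SD, n = 4) at 1000 mg/kg, with no overlap (-0.57, 95% interval -0.76 to -0.38, limma adjusted p = 0.00142). In liver Tlr4 had a value of 0.20 (limma adjusted p = 0.704). Of the 13, 10 lay below 0 in liver and 11 in kidney (45.7% and 55.5% of all genes), with medians of -0.04 and -0.16. Of 23 further genes of T cells and natural killer cells none was called with limma in either organ (1.05% of all genes in liver, 1.55% in kidney). At an unadjusted p under 0.05, 1 was lower in liver and 5 in kidney (4.54% and 8.57% of all genes). In both organs 15 of the 23 lay below 0 (45.7% of all genes in liver, 55.5% in kidney), with medians of -0.04 in liver and -0.02 in kidney.

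The signals that recruit and maintain these cells showed no called gene. The share of all genes called, to set beside each list below, was 1.05% in liver and 1.55% in kidney. None of 16 monocyte chemokines, cytokines and adhesion molecules passed in either organ with limma (0 in liver and 6 in kidney at an unadjusted p under 0.05, 2 of the 6 higher and 4 lower, where 4.76% of all genes were higher and 8.57% lower). Their medians were 0.01 in liver and -0.06 in kidney. Markers of other cells are given as measured, and their part in the results was not tested. None of 7 B and plasma cell markers, 7 class II genes, 6 neutrophil markers, 4 blood markers, 9 adipocyte markers, 9 endothelial markers or 6 hepatocyte markers was called in either organ with limma. At an unadjusted p under 0.05, in either direction, the numbers in this order were 2, 0, 0, 1, 2, 2 and 1 in liver and 0, 0, 0, 0, 1, 2 and 0 in kidney. Of all genes, 4.54% were lower and 7.88% higher in liver by this measure, and 8.57% lower and 4.76% higher in kidney. In kidney at 1000 mg/kg the array means of the endothelial markers lay from -0.23 to -0.04 against -0.06 to 0.09 in controls, and those of the adipocyte markers from -0.39 to -0.12 against -0.27 to 0.60. Of 7 proximal tubule markers, none was called in kidney and Slc22a8, an organic anion transporter, fell in liver, from 10.08 ± 0.12 (SD, n = 5) to 9.48 ± 0.36 (SD, n = 4; limma adjusted p = 0.0141). Of all genes, 0.309% fell in liver.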

How the data were processed

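Affymetrix rat arrays measured total RNA of each liver or kidney sample. Per probe set, the authors deposited a log2 level, made with RMA (version not stated) per the submitters' processing notes. RMA makes arrays alike in distribution, so a shift of most genes at once would not be seen. Of 31099 probe sets, 20826 had 1 symbol, which gave 14217 genes. In each organ limma 3.58.1 (R 4.3.3) fitted 1 mean per dose group over all arrays. Separate models tested the trend with dose rank and, over all 49 arrays, the difference between the organs' changes at 1000 mg/kg. The model of the difference took all liver and kidney samples as independent, which the labels neither state nor exclude. P-values were adjusted over all genes (Benjamini-Hochberg). The models were run on simulated data with independent noise, which checks the code and not the calls near the threshold.

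The members and lists were chosen with earlier results of these data known. Array values are given for called members and, in each organ, for the 2 members of each role group (1 in groups of 3 or fewer) with the smallest p at 1000 mg/kg. Those of Mrc1, Clec4f and Cd14 lie outside this rule. Of other lists, up to 4 called genes are named. Alternatives were other probe set summaries, filters, scalings, variance models, array weights, the replicate block, the 2 groups alone, handling of arrays high in adipocyte markers and leaving out each array. Counts below 0 under other scalings and without single arrays and lymphocyte means without Sit1 or Klrg1 were added after seeing the data.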

Additional observations from a re-analysis of the deposited data

Results flagged for a closer look

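The changes of Klrg1 and Sit1 at 1000 mg/kg differed between the organs by the test of the difference itself (liver minus kidney, limma), with -1.03 for Klrg1 (adjusted p = 0.00959) and -1.30 for Sit1 (adjusted p = 0.0487). Sit1 passed in neither organ alone, and its difference was lost in 14 of 18 fits without 1 array. Neither difference passed without the kidney arrays high in adipocyte markers. In kidney controls both genes were dim, with 18.8% (Klrg1) and 25.1% (Sit1) of genes below them.

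Of 143 groups of 4 or 5 arrays examined for the genes with array values, 8 held 1 array far from the rest, and chance alone gives about 1 in 20. In kidney, Klrg1 at 100 mg/kg read 4.61 in replicate 2 (others 4.44 to 4.45), Csf1r read 7.08 in 1 mg/kg replicate 1 (others 6.73 to 6.79) and 6.93 in 10 mg/kg replicate 3 (others 6.72 to 6.74), Fcer1g read 9.16 in 100 mg/kg replicate 2 (others 8.76 to 8.81), and Cybb read 8.27 in control replicate 5 (others 8.60 to 8.67). In liver, Cd74 read 10.67 in control replicate 3 (others 9.75 to 9.97), Cd163 read 7.80 in 500 mg/kg replicate 2 (others 7.31 to 7.34) and Laptm5 read 7.87 in 1000 mg/kg replicate 4 (others 7.75 to 7.77).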

How the results depend on the processing

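Counts of members called are given, and no called value recomputed changed sign. In kidney at 1000 mg/kg there were 2 calls, against 1 (Adgre1) with the mean of all probe sets, 1 (Cybb) among genes at or above the median level (14 members tested, Adgre1 not among them), 1 without the arrays high in adipocyte markers (Csf1r, with Adgre1 and Cybb both lost) and 0 with the 2 groups alone. The kidney trend (1 call) gave 2 with a variance trend and robust moderation, 0 with array weights and 0 with the arrays high in adipocyte markers left out. The liver trend (0 calls) gave 1, Klrg1, among genes at or above the median level. The difference between organs (2 calls) gave 1 with the mean of all probe sets, 1 with quantile normalization, 1 with array weights, 0 among brighter genes (23 members tested, with Klrg1 and Sit1 removed by the filter) and 0 without the arrays high in adipocyte markers. Leaving out single arrays gave 0 to 1 calls in liver at 1000 mg/kg, 0 to 1 for the liver trend, 0 to 4 in kidney at 1000 mg/kg, 0 to 3 for the kidney trend and 1 to 2 for the difference. Other than genes removed by the filter, the cause of these losses was not tested. The share of all genes called in each of these fits is not given here. A loss among the members is therefore not set apart from fewer calls among all genes. All other comparisons kept 0 calls under every setting tried. With the replicate number as a block the liver count at 1000 mg/kg was 0 (Klrg1 -0.73, limma adjusted p = 0.0956), the kidney count stayed 2 with Cybb and Sit1 in place of Adgre1 (limma adjusted p = 0.0546), and the kidney trend called 1 gene, Cybb. Dosed arrays correlated with the control of the same number from -0.21 to 0.30 in liver and from -0.32 to 0.18 in kidney after removal of group means. Of these pairs, 4 of 20 and 4 of 19 were over 0.1, so the numbers were not taken to pair the samples. Same-numbered arrays of different dosed groups were not compared. No detection calls were used, so how far low signal limits a gene was not measured.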
